A study of Mus musculus with 6 samples.

Results

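Of the 47729 genes in the count table, 77 (0.161%) were read in every NOD.B10 spleen and almost never in a BL/10 spleen. A gene was taken when it had at least 10 raw counts in every NOD.B10 library (n = 3) but no more than 3 in any BL/10 library (n = 3). Antigen receptor genes, genes whose symbols begin with Klr, Clec, H2- or Ly6, Ifi202b and Npy were left out by symbol, which removed 14 genes that met both thresholds. The thresholds turned round gave 53 genes (0.111%) read only in BL/10, which are 0.374% of the genes with at least 10 counts in every BL/10 library. The 77 genes were thus chosen by their raw counts in these same libraries, so their own difference between strains is described here and carries no test. For scale, 20.5% of the 15330 genes with enough counts to be tested had all NOD.B10 libraries above all BL/10 libraries.

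The spleens came from NOD.B10 females, a strain used to model primary Sjögren's syndrome (pSS), and from BL/10 (C57BL/10) females, the healthy control strain, with n = 3 libraries each. NOD.B10 mice (NOD.B10Sn-H2b/J) have the NOD background with the H2b haplotype in place of the NOD haplotype. The strain name gives B10 as the source of H2b, so by name H2b does not set NOD.B10 apart from BL/10. No transgene, deletion or treatment was given for either group. The strain of each library was read from its description and column name, but titles and strain fields give each of the 6 libraries to the other strain, and every direction below would be reversed under the titles. The labels give 26 weeks of age for 4 libraries and 36 weeks for BL/10 replicates 2 and 3, whereas the protocol describes age-matched females at 26 weeks, so for those libraries age and strain cannot be told apart.

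Total counts were between 15662712 and 18298451 per library, and a floor of 3 counts lay between 0.164 and 0.192 CPM, the count of a gene relative to the size of its library. The tissue carried its own markers, with B cell genes summing to between 2975 and 5274 CPM and the spleen stroma list detected in both strains (Ccl21a was at 0 in all libraries). The strains differed in cell markers: 9 of 10 T cell genes and 6 of 8 plasma cell genes were higher in NOD.B10, and 8 of 8 neutrophil genes were lower. In whole spleen, fewer cells of a type and less RNA per cell cannot be told apart. Pancreas acinar genes summed to between 20.8 and 30.3 CPM in NOD.B10 and to between 101 and 9874 CPM in BL/10, with the highest value in BL/10 replicate 1, and their part in the results was not tested. None of the 77 genes was on any of the marker lists.

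Most of the 77 genes were annotated as pseudogenes. A processed pseudogene, or retrocopy, arises when a messenger RNA is copied back into DNA and inserted elsewhere, so that it usually lacks introns and lies on another chromosome than its parent gene. An unprocessed pseudogene arises by duplication of a stretch of genome and keeps the exon structure, often close to its parent. Both kinds can still be transcribed, and reads of 50 bases can be assigned to such a copy and not to its parent only where their sequences differ or where the surrounding sequence is included. Any read that fits several places equally well was not counted by the authors' settings, and strand was not used.

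The sequences below show how little separates some of the processed pseudogenes from their parents. The pairs were picked and not taken by a rule. For each pair, 60 bases of the parent's coding sequence are given 5′ to 3′ from the GENCODE M21 transcripts (GRCm38), with the bases that differ in capitals. They are the stretch with the most substituted bases among those aligned without a gap. Gaps and differences outside the coding sequence are not shown. Gm8210 (chr1:43189168-43189227, plus strand) is shown because its parent Rpl29, a protein of the large ribosomal subunit, had the smallest adjusted p of the parents, and Gm6969 (chr12:24638732-24638791, minus strand) because it had the most counts of the 77 genes. Both pairs differed at 1 of the 60 bases, while identity over the aligned transcript was 99.38% for Gm8210 and 97.15% for Gm6969.
Gm8210: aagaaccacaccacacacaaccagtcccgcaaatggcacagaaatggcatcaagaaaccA
Rpl29 (beside Gm8210): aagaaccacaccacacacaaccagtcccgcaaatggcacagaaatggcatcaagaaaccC
Gm6969: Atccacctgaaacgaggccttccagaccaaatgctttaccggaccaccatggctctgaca
Cox7a2l (beside Gm6969): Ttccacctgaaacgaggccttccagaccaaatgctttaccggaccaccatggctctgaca

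Vcp-rs (chrX:104346696-104346755, minus strand) is a copy of Vcp, an AAA ATPase that extracts proteins from complexes and membranes, and differed at 3 of 60 bases. Rbpj-ps3 (chr6:46529843-46529902, minus strand) is a copy of Rbpj, the DNA-binding factor of Notch signaling, and differed at 2 of 60. Gm11868 (chr4:18845539-18845598, minus strand) is a copy of Cyb5r4, a flavin and heme reductase, and differed at 3 of 60. Gm4246 (chr17:36194654-36194713, minus strand), a copy of the mitochondrial membrane protein gene Tmem14c, lay between H2-T3 and H2-M10.2 in the H2 region and differed at 4 of 60.
Vcp-rs: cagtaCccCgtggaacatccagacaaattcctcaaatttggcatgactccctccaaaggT
Vcp (beside Vcp-rs): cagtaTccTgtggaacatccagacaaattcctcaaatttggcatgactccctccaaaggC
Rbpj-ps3: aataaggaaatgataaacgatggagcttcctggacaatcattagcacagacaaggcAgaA
Rbpj (beside Rbpj-ps3): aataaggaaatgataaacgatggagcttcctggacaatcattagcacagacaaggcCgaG
Gm11868: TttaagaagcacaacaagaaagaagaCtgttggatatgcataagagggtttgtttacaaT
Cyb5r4 (beside Gm11868): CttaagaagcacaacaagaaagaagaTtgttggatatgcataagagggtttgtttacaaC
Gm4246: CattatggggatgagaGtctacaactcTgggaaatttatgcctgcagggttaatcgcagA
Tmem14c (beside Gm4246): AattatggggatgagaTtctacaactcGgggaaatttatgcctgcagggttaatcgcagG

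By gene type, 36 of the 77 genes (46.8%) were processed pseudogenes, 23 (29.9%) were protein-coding, 12 (15.6%) were other pseudogenes, 5 (6.49%) were long non-coding RNAs and 1 was annotated as a miRNA. Of the 14213 genes with at least 10 counts in every NOD.B10 library, 0.542% were among the 77, and processed pseudogenes made up 1.41% of those 14213 genes. Within gene types, 36 of 200 processed pseudogenes read at that level (18.0%) and 12 of 83 other pseudogenes (14.5%) were among the 77, against 23 of 13086 protein-coding genes (0.176%). Tested processed pseudogenes had a median of 1.24 CPM in NOD.B10, beside 28.0 CPM for tested protein-coding genes. Genes of low level can meet both limits with a smaller difference, and level and type were not separated. The 53 genes read only in BL/10 were made up of 5 processed pseudogenes (9.43%), 2 other pseudogenes, 34 protein-coding genes (64.2%) and 12 long non-coding RNAs. Of genes with at least 10 counts in every BL/10 library, these were 5 of 153 processed pseudogenes (3.27%) and 2 of 71 other pseudogenes (2.82%). For protein-coding genes the share was 34 of 13123 (0.259%). In that set, 5 of the 53 genes had a highest BL/10 library at least 20 times the lowest, and these included the pancreas genes Reg1, Cela3b and Ctrc, which were named after their values were seen.

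**Figure D1:**
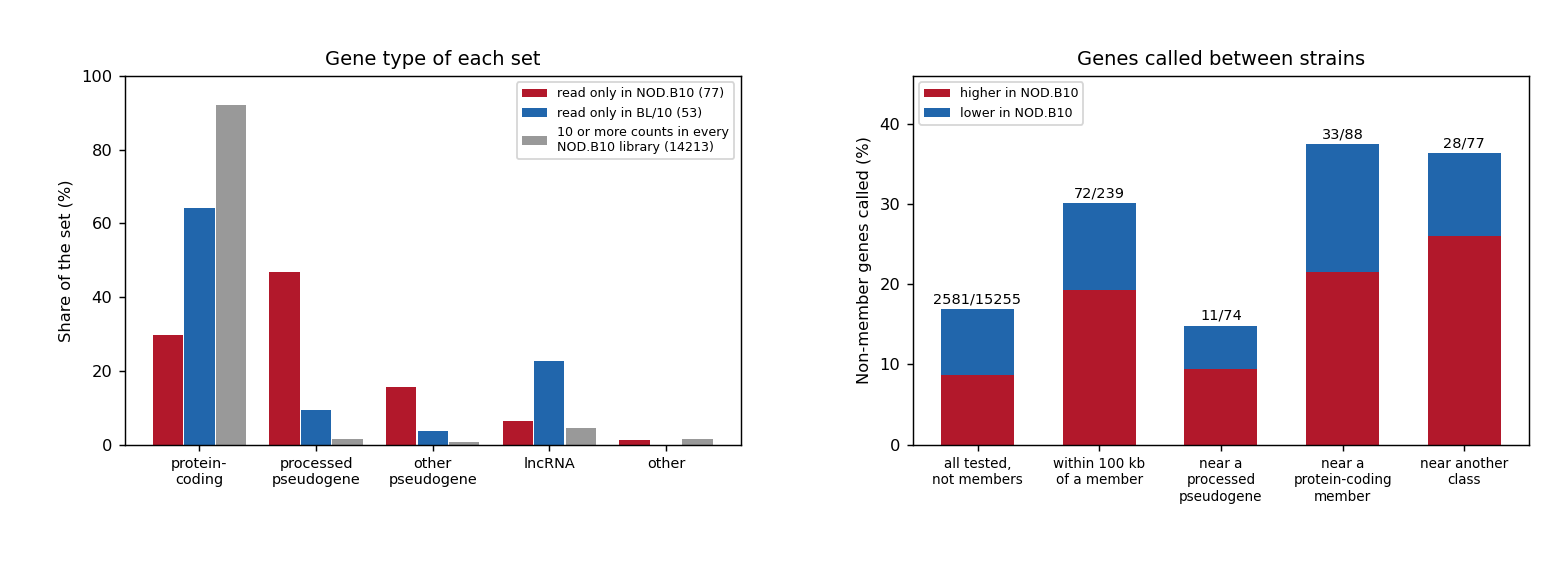
Left, share of each gene type (%) among the 77 genes read only in NOD.B10, the 53 read only in BL/10 and the 14213 with 10 or more counts in every NOD.B10 library. Right, share (%) of tested genes other than the 77 that were called between strains (edgeR adjusted p under 0.05), split by direction, with called and tested numbers above each bar. Processed pseudogenes fill 46.8% of the first set and 9.43% of the second, and the genes around processed pseudogenes were called in 11 of 74 cases against 33 of 88 around protein-coding members.

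Together the 77 genes took 5354, 5317 and 5654 counts in the NOD.B10 libraries and 68, 63 and 61 in the BL/10 libraries. Before scaling this made 325, 327 and 329 CPM in NOD.B10, close to each other. Between NOD.B10 libraries, 49 of the 77 genes had a highest CPM under 1.5 times the lowest, and 8 had one at least 2 times the lowest. By this ratio the long non-coding RNA Gm2093 (37, 13 and 41 counts) and the pseudogene Gm15854 (65, 30 and 24 counts) spread most, each 2.9-fold. The coefficient of variation was 47.6% for Gm2093 and 57.1% for Gm15854. In BL/10, 12 of the 77 genes were at 0 in all libraries.

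**Figure D2:**
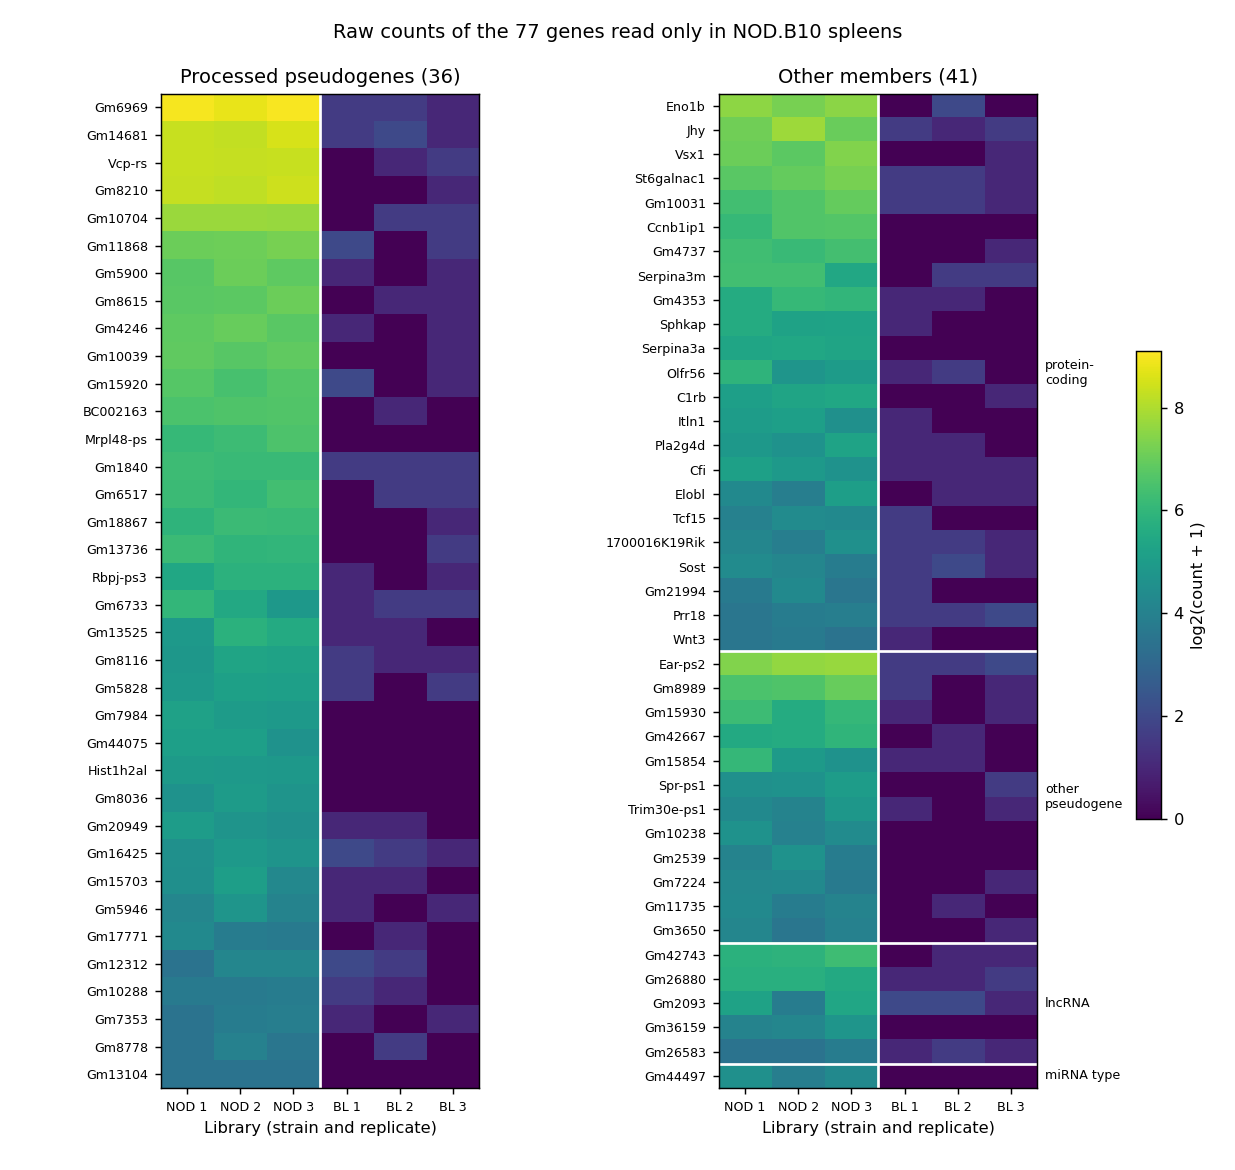
Raw counts, as log2(count + 1), of the 77 genes (rows, ordered by gene type and mean NOD.B10 level) in each of the 6 libraries (columns, strain and replicate number). The NOD.B10 columns are filled in every row because the counts chose the genes, and processed pseudogenes range from 10 to 515 counts there.

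Among the processed pseudogenes, Gm6969, a copy of the respiratory chain gene Cox7a2l, had 508, 442 and 515 counts in NOD.B10 against 2, 2 and 1 in BL/10. Gm14681, a copy of the nucleolar chaperone gene Npm1, had 324, 304 and 370 counts in NOD.B10 against 2, 3 and 1 in BL/10. Vcp-rs had 326, 318 and 324 counts in NOD.B10 against 0, 1 and 2 in BL/10. In each of these copies the NOD.B10 libraries lay close together and every BL/10 library was at or under the floor, a separation that the rule imposed. Gm8210 had 315, 296 and 341 counts in NOD.B10 against 0, 0 and 1 in BL/10. Gm10704, a copy of the RNA-binding factor gene Rtraf, had 212, 213 and 208 counts in NOD.B10 against 0, 2 and 2 in BL/10. In the ratio of pooled counts, Gm6969 was 305-fold higher in NOD.B10 (95% interval 130 to 940.0, exact, counting error only) and Gm10704 was 165-fold higher (64.0 to 606).

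Between NOD.B10 libraries, the median coefficient of variation was 11.9% for the processed pseudogenes and 18.8% for the protein-coding members, a difference that was not tested. Of the 36, 32 had a single exon and 12 lay inside a protein-coding gene, 11 of them without sharing an exon base with it. Their median length was 916 bases and their median level 2.89 CPM in NOD.B10. Per kilobase of exon, the level of Gm6969 was 84.3 CPM, that of Gm14681 was 47.7 CPM and that of Gm8210 was 38.8 CPM, beside a median of 4.04 CPM per kilobase over the 36. In 6 of the 36 all BL/10 libraries were at 0, and for Mrpl48-ps, with 67, 74 and 94 counts in NOD.B10, this gives a level at least 81.5-fold higher than in BL/10. Mrpl48-ps is a copy of the mitochondrial ribosomal protein gene Mrpl48.

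A median of 43.2% of the 50-base windows of the 36 processed pseudogenes also occurred in another annotated transcript, beside 38.6% for the 229 tested processed pseudogenes outside the set and 0.972% for the protein-coding members. All windows of Gm8210 and of Gm13736, a copy of the signal recognition particle gene Srp9, were shared in this way. Gm13736 had 73, 61 and 62 counts in NOD.B10 against 0, 0 and 2 in BL/10, although its 253 bases were identical to the Srp9 transcript. Counts on such a copy and on its parent are therefore uncertain, since reads were assigned by the authors' alignment to a reference made from another strain, and how strain sequence differences moved reads between a copy and its parent was not tested.

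Processed pseudogenes outside the set also took more of the counts in NOD.B10. Without the 77 genes and the 53 read only in BL/10, processed pseudogenes held 0.104%, 0.100% and 0.102% of all counts in NOD.B10, beside 0.0742%, 0.0675% and 0.0678% in BL/10. Every NOD.B10 library was above every BL/10 library, a ratio of means of 1.46 (exact permutation test, two-sided p = 0.1, the smallest that 3 libraries against 3 allow). Of the 229 tested processed pseudogenes outside the set, 25 (10.9%) were higher and 14 (6.11%) were lower in NOD.B10.

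A parent gene was found by sequence for 34 of the 36 processed pseudogenes, as the protein-coding transcript that aligned best with at least 90% identity over at least 50% of the copy. Gm17771 and Gm13104 had none. Of 33 parents read in NOD.B10, 31 lay on another chromosome than the copy. The parents were not used by the rule, but a read placed on a copy is not counted for its parent. Parent counts are thus not independent of the counts that chose the copies. All 33 passed the filter for the test between strains (edgeR's quasi-likelihood test, Benjamini-Hochberg adjusted over 15330 genes). Of these parents, 12 (36.4%) were lower in NOD.B10 and 0 were higher, where 8.22% of all tested genes and 8.11% of the protein-coding ones were lower and 9.11% of all were higher. Over all 33, 27 of 33 log2 fold changes were below 0, with a median of -0.31, beside a median of 0.00060 over all genes tested. At an unadjusted p under 0.05, edgeR gave 0 higher and 17 lower parents, and DESeq2 gave 0 higher and 19 lower (0 and 13 after adjustment).

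Genes of the ribosome stood among the lower parents. Rpl29 was at 33.4, 30.6 and 32.6 CPM in NOD.B10 and 111, 109 and 104 CPM in BL/10, without overlap (log2 fold change -1.74 ± 0.080 SE, adjusted p = 2.4e-05). Rpl21, another large subunit gene and the parent of Gm13525, was at 8.61, 9.83 and 8.60 CPM in NOD.B10 and 54.8, 49.0 and 37.3 CPM in BL/10 (-2.38 ± 0.16, adjusted p = 0.00011). Its match was shared with BC004004, and both ribosomal protein genes have many near-identical copies, so these values are uncertain. Rpl11, the parent of Gm10288, also encodes a large subunit protein and was not called, at 696 ± 43.7 CPM in NOD.B10 and 819 ± 69.2 CPM in BL/10 (SD, n = 3, adjusted p = 0.18). Its copy had only 12, 12 and 13 counts in NOD.B10.

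Gnpda1, a glucosamine-6-phosphate deaminase and the parent of Gm8615, was at 13.4, 12.3 and 12.3 CPM in NOD.B10 and 33.9, 38.3 and 37.7 CPM in BL/10 (-1.53 ± 0.098, adjusted p = 9.3e-05). Gm8615 itself had 107, 112 and 133 counts in NOD.B10 against 0, 1 and 1 in BL/10, which is a level per kilobase of 6.28 CPM beside 5.29 CPM for its parent. Srp9 was at 41.8, 40.8 and 42.0 CPM in NOD.B10 and 94.8, 89.3 and 66.1 CPM in BL/10 (-1.01 ± 0.14, adjusted p = 0.0029). In both parents all BL/10 libraries lay above all NOD.B10 libraries.

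Tmem14c, which acts in heme synthesis, was at 157 ± 27.5 CPM in NOD.B10 and 298 ± 74.1 CPM in BL/10 (-0.93 ± 0.21, adjusted p = 0.021), and its copy Gm4246 had 114, 125 and 107 counts in NOD.B10. Setd3, an actin histidine methyltransferase, was at 57.3 ± 5.25 CPM and 86.9 ± 8.60 CPM (adjusted p = 0.0094), and its copy Gm8036 was 91.3% identical to it. Cyb5r4 was at 62.3 ± 5.04 CPM and 89.7 ± 3.40 CPM (adjusted p = 0.0071). The remaining lower parents were the complex I genes Ndufa12 and Ndufs5, the carnosine methyltransferase gene Carnmt1, Rbpj and Mrpl48, with log2 fold changes between -0.66 and -0.41. Rbpj was at 21.2, 18.7 and 18.2 CPM in NOD.B10 and 27.0, 23.7 and 27.3 CPM in BL/10, a smaller gap than those above but again without overlap (adjusted p = 0.033).

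The share of lower parents is also given by how alike copy and parent are. With at least 99% identity, 7 of 12 tested parents were lower, with a median log2 fold change of -0.47, and under 99% identity 5 of 21 were lower, with a median of -0.20. This difference was not tested. The 21 parents that were not called were Naa20, Atp5g1, Relt, Tox4, Eif5, Rtraf, Myl12a, Cox7a2l, Bmi1, Vcp, Trim21, Srpr, Gpi1, Larp1, Fgfr1op2, Isg20l2, Rnaseh2a, Npm1, Rpl11, Zc3h3 and Lamtor3, with log2 fold changes between -0.40 and 0.34. Cox7a2l, the parent of the copy with the most counts, was at 172 ± 9.56 CPM in NOD.B10 and 146 ± 18.3 CPM in BL/10 (adjusted p = 0.19). Hist2h2aa2, a histone H2A gene tied with Hist2h2aa1 as the best match of Hist1h2al, was at 0 in all libraries and could not be tested. Reads that fit several such genes equally well were not counted.

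**Figure D3:**
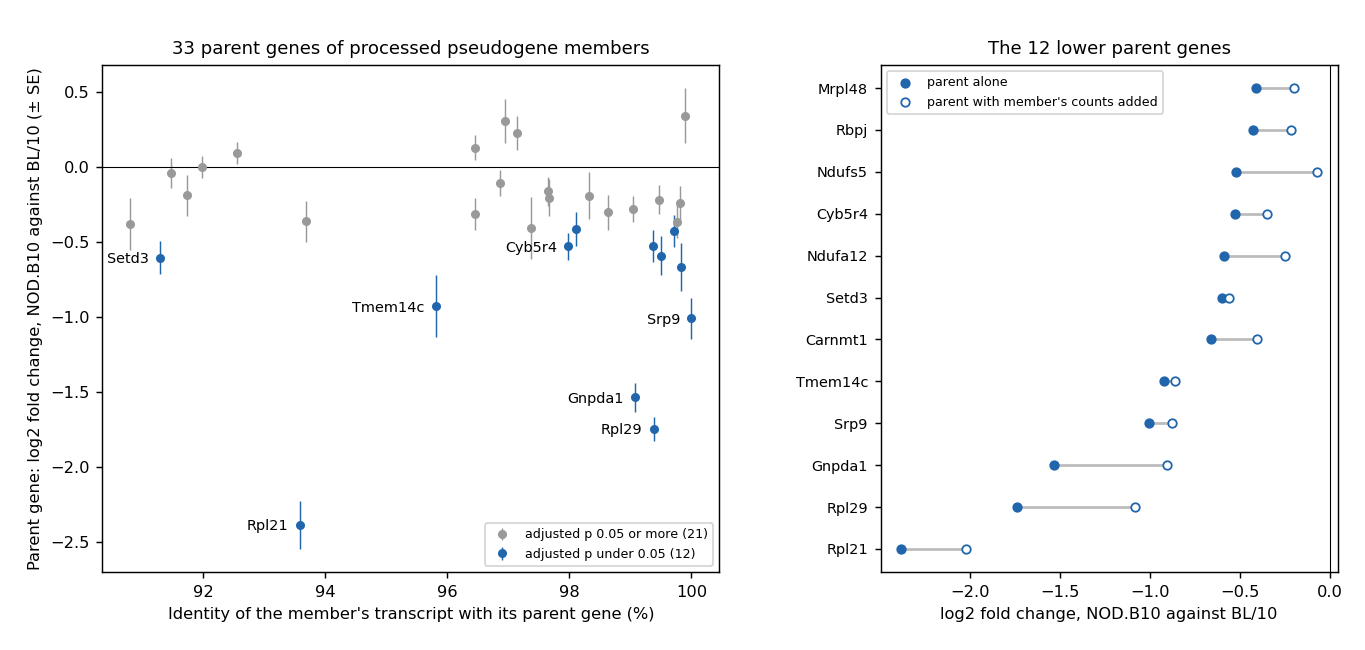
Left, log2 fold change (± SE) of the 33 tested parent genes of processed pseudogenes against the identity (%) of the copy's transcript with the parent. Blue points are the 12 parents with an adjusted p under 0.05, all below 0. Right, log2 fold change of these 12 parents alone (filled) and after the counts of the copy were added to the parent (open), where Ndufs5 moved from -0.52 to -0.07 and Rpl21 from -2.38 to -2.02. The rule chose the added counts as high in NOD.B10, so the direction of these moves was fixed.

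When the counts of each copy were added to its parent, an alternative chosen after the data were seen, 7 of the 12 parents were still called lower and 5 were not. Those no longer called were Carnmt1, Mrpl48, Ndufa12, Ndufs5 and Rbpj. For Rpl29 and Gm8210 together the log2 fold change was -1.08 (adjusted p = 0.00019), and for Gnpda1 and Gm8615 together it was -0.91 (adjusted p = 0.00079). Cox7a2l with Gm6969 was higher in NOD.B10 at 0.45 (adjusted p = 0.034), where Cox7a2l alone was not called. Over the parents of all pseudogene members, 14 of 37 tested were lower and 0 higher alone. With the copies added, 8 of 39 were lower and 5 higher. Ear10 and Hist2h2aa2, too low to be tested alone, were tested only with the counts of their copies. The rule chose the added counts as high in NOD.B10, so the sums could only move towards NOD.B10. Calls of higher sums are therefore no test of the parent. The 12 calls fell to 5 without NOD.B10 replicate 1 and to 5 without NOD.B10 replicate 3, and to 4 (Gnpda1, Rpl21, Rpl29 and Srp9) without the libraries labelled 36 weeks. Without BL/10 replicate 1 they rose to 17, of which Bmi1 (adjusted p = 0.013) and Cox7a2l (adjusted p = 0.047) were higher in NOD.B10.

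By annotation, the 12 other pseudogenes were 8 unprocessed, 3 transcribed unprocessed and 1 immunoglobulin V pseudogene. Ear-ps2, of the eosinophil-associated ribonuclease family, had 166, 198 and 207 counts in NOD.B10 against 2, 2 and 3 in BL/10. Gm8989, of the very large interferon-inducible GTPases, had 92, 96 and 125 counts in NOD.B10 against 2, 0 and 1 in BL/10. Gm15930, of the paired immunoglobulin-like receptors, had 74, 47 and 65 counts in NOD.B10 against 1, 0 and 1 in BL/10. These 3 copies belong to families of blood and immune cells, and their NOD.B10 libraries lay within 1.53-fold of each other in CPM.

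Gm42667, annotated as an immunoglobulin V pseudogene although its symbol does not say so, had 45, 47 and 61 counts in NOD.B10 against 0, 1 and 0 in BL/10. Gm15854, in the interval of the Klra natural killer receptors, had 65, 30 and 24 counts in NOD.B10 against 1, 1 and 0 in BL/10, and was the least even of the 12. Neither had a parent by the criteria used for the copies above. These took only genes typed as protein-coding, so Gm42667 could not be matched to an immunoglobulin V segment. The other 7 (Spr-ps1, Trim30e-ps1, Gm10238, Gm2539, Gm7224, Gm11735 and Gm3650) had between 11 and 32 counts in NOD.B10.

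Of the 12 other pseudogenes, 6 had a parent by the same criteria, and 4 of the 6 lay on the same chromosome as it. Gvin1, the parent of Gm8989, was at 0 in all NOD.B10 libraries and had 40, 34 and 33 counts in BL/10, so its level was at least 35.6-fold lower in NOD.B10 (adjusted p = 0.00073), the reverse of its copy. With the counts of Gm8989 added, Gvin1 turned to 1.504 on the log2 scale, higher in NOD.B10 (adjusted p = 0.0019). Pira2, the parent of Gm15930, was at 6.25 ± 0.22 CPM in NOD.B10 and 6.68 ± 0.47 CPM in BL/10 and was not called (adjusted p = 0.64). With the counts of Gm15930 added, Pira2 was higher in NOD.B10 at 0.56 (adjusted p = 0.028). The rule chose both copies as high in NOD.B10, so these sums had to move that way and do not test the parents. Eif3j1, a translation initiation factor gene and the parent of Gm3650, was at 25.8, 30.0 and 24.6 CPM in NOD.B10 and 33.2, 39.3 and 36.4 CPM in BL/10 (-0.44 ± 0.11, adjusted p = 0.034). Fbxo34, the parent of Gm7224, was not called (adjusted p = 0.42). Ear10, the best match of Ear-ps2, was too low to be tested, at 0.23 ± 0.090 CPM and 0.11 ± 0.048 CPM. Gm11735 matched St6galnac1, which is itself among the 77 genes.

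Among the 23 protein-coding members, genes of the complement system and of its inhibitors were read at low levels. C1rb, a copy of the C1r protease that starts the classical pathway, had 34, 39 and 42 counts in NOD.B10 against 0, 0 and 1 in BL/10. Cfi, the protease that cleaves C3b and C4b, had 35, 29 and 24 counts in NOD.B10 and 1 in each BL/10 library. C1ra, the gene that C1rb matched with 97.9% identity, was not called, at 28.0 ± 1.13 CPM in NOD.B10 and 23.6 ± 5.31 CPM in BL/10 (adjusted p = 0.31).

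Serine protease inhibitors gave another pair. Serpina3m had 81, 81 and 43 counts in NOD.B10 against 0, 2 and 2 in BL/10. Serpina3a had 40, 42 and 39 counts in NOD.B10 and 0 in every BL/10 library, a level at least 42.0-fold higher. St6galnac1, a sialyltransferase of O-glycans, had 107, 123 and 148 counts in NOD.B10 against 2, 2 and 1 in BL/10. All 3 genes stood in clusters of relatives, which are described with their positions below.

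Several members are known from other tissues. Vsx1, a homeobox gene of retinal bipolar cells, had 132, 112 and 165 counts in NOD.B10 against 0, 0 and 1 in BL/10, a ratio of 425 (95% interval 75.9 to 16844, counting error only). Ccnb1ip1, which acts in meiotic crossing over, had 67, 99 and 101 counts in NOD.B10 and 0 in all BL/10 libraries, a level at least 92.6-fold higher. Jhy, a gene of cilia formation, had 139, 218 and 129 counts in NOD.B10 against 2, 1 and 2 in BL/10. Beside these, the germ cell marker list summed to at most 1.38 CPM in NOD.B10 and the neuron list to at most 12.9 CPM. Sphkap, an anchor of protein kinase A, had 47, 37 and 38 counts in NOD.B10 against 1, 0 and 0 in BL/10.

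Itln1, a lectin that binds microbial sugars, had 32, 34 and 23 counts in NOD.B10 against 1, 0 and 0 in BL/10. Pla2g4d, a cytosolic phospholipase A2, had 28, 24 and 38 counts in NOD.B10 against 1, 1 and 0 in BL/10. Tcf15, a bHLH factor of somite formation, had 15, 20 and 19 counts in NOD.B10 against 2, 0 and 0 in BL/10. Sost, an inhibitor of Wnt signaling, and Wnt3, a Wnt ligand, were near the threshold, Sost at 20, 17 and 13 counts against 2, 3 and 1 and Wnt3 at 11, 12 and 10 against 1, 0 and 0. For Sost the ratio was 8.67 (95% interval 3.71 to 24.7, counting error only), among the smallest of the set, and Wnt3 did not pass the filter for the test. Elobl, 1700016K19Rik, Gm21994 and Prr18 had between 11 and 33 counts in NOD.B10, and Prr18 had the smallest ratio of the protein-coding members, 5.65 (2.49 to 15.0).

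Olfr56, annotated as an olfactory receptor gene, had 60, 26 and 31 counts in NOD.B10 against 1, 2 and 0 in BL/10. Its annotation overlaps 11 other genes and shares 111 exon bases (2.45% of its own) with Ifi47, an interferon-induced GTPase. Reads on the shared bases were not counted. As strand was not used, the origin of its other counts is uncertain. Eno1b, Gm4737, Gm10031 and Gm4353 are annotated as protein-coding but matched Eno1, Ahcy, Csnk2a1 and Nup35 with at least 99% identity. Eno1b had 187, 150 and 184 counts in NOD.B10 against 0, 3 and 0 in BL/10, and shared 85.2% of its 50-base windows with other transcripts. Gm4737 had 79, 71 and 82 counts, Gm10031 had 81, 97 and 124 counts and Gm4353 had 47, 67 and 62 counts in NOD.B10, each with at most 2 in any BL/10 library. Of the 4 genes they matched, Ahcy, of methionine metabolism, and Nup35, of the nuclear pore, were lower in NOD.B10. Among all tested protein-coding genes, 8.11% were lower. A read placed on such a copy is not counted for the gene it matched. The counts of the 4 genes are thus not independent of the rule, and no fit with the copies added was made for them. Ahcy was at 30.2 ± 2.01 CPM and 41.8 ± 5.20 CPM (adjusted p = 0.029), and Nup35 at 7.16 ± 0.38 CPM and 13.5 ± 0.97 CPM (adjusted p = 0.0023). Eno1 (adjusted p = 0.085) and Csnk2a1 (adjusted p = 0.28) were not called.

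The 5 long non-coding RNAs were Gm42743, Gm26880, Gm2093, Gm36159 and Gm26583. Gm42743 had 55, 58 and 77 counts in NOD.B10 against 0, 1 and 1 in BL/10, and shared exon bases with the histone gene Hist2h2bb, which was at 0. Gm26880 had 53, 53 and 45 counts in NOD.B10 against 1, 1 and 2 in BL/10. Gm36159 had 16, 17 and 26 counts in NOD.B10 and 0 in BL/10, and 40.1% of its exon bases lay on those of Irgc1, an immunity-related GTPase on the other strand. Reads that overlapped exons of both genes were not counted, and without strand the origin of the other reads cannot be told. Irgc1 itself was higher in NOD.B10, at 6.72 ± 1.33 CPM against 1.53 ± 0.35 CPM (adjusted p = 0.0013). Gm44497, annotated as a miRNA of 77 bases, had 23, 14 and 19 counts in NOD.B10 and 0 in BL/10, and matched Gpr137b with 95.9% identity, a match shared with Olfr9.

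The members lay on 19 chromosomes, with 10 on chromosome 11 (13.0% of members, where 8.18% of tested genes lie), 9 on chromosome 7 and 7 on chromosome 6, and 0 on chromosome 19. Within 250 kb of each other lay only 4 members in 2 pairs, Gm11735 with St6galnac1 on chromosome 11 and Serpina3a with Serpina3m on chromosome 12. Without BL/10 replicate 1, which lets more genes pass the rule, 10 members had another within 250 kb. Inside the body of a protein-coding gene lay 17 members, 9 of them on the same strand. Of the 13 such genes that could be tested, 3 were called, all higher in NOD.B10, where 17.3% of all tested genes were called in either direction. They were Zbtb20, a zinc finger repressor that contains the Ndufs5 copy BC002163, at 63.8 ± 4.37 CPM against 37.5 ± 4.71 CPM (adjusted p = 0.0038), Irgc1, and Clec2g, which contains Gm8778, at 4.41 ± 0.78 CPM against 1.76 ± 0.38 CPM (adjusted p = 0.0091). The other 10 included Kif5c, which contains Gm13525 (adjusted p = 0.13).

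Position was not used by the rule, but neighbors were left outside the set by their own counts. Some missed it narrowly, such as C1s2 with 4, 3 and 0 counts in BL/10. Others are relatives of a member, and how reads were placed between them was not tested. Calls of non-member genes within 100 kb of a member are thus not fully independent of the counts that chose the members. Of 239 such genes tested, 72 (30.1%) were called, 46 higher and 26 lower in NOD.B10, where 16.9% of all tested genes outside the set were called. Around processed pseudogenes the count was 11 of 74 (14.9%), around protein-coding members 33 of 88 (37.5%), and around the others 28 of 77 (36.4%). These differences were not tested. The count of 72 fell to 46 of 240 (19.2%, beside 8.12% of all genes tested) without NOD.B10 replicate 1 and to 40 of 246 (16.3%, beside 6.19%) without the libraries labelled 36 weeks.

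Around St6galnac1 and Gm11735, whose bodies are 15192 bases apart (GRCm38, chr11:116739062-116775507), 7 of 13 tested genes within 250 kb were called. The antisense gene BC018473, between them, was at 121, 104 and 163 CPM in NOD.B10 and 0.27, 0.13 and 0.057 CPM in BL/10 (log2 fold change 9.62 ± 0.34, adjusted p = 7.3e-06). St6galnac2, the neighboring sialyltransferase, was at 74.1, 66.3 and 97.5 CPM in NOD.B10 and 11.8, 9.19 and 11.8 CPM in BL/10 (2.85 ± 0.18, adjusted p = 8.0e-05). Both genes thus separated the strains in the direction of the pair of members, as did Prcd, Cygb and 1810032O08Rik on the same side. Sphk1, a sphingosine kinase farther out on that side, and Mettl23, a methyltransferase gene on the other side, were lower in NOD.B10, at -1.05 ± 0.19 and -0.91 ± 0.14.

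Around Serpina3m (chr12:104338486-104394257), 6 of 8 tested genes were called, and all of the 8 belong to the Serpina3 family. Serpina3h was at 16.0, 12.8 and 17.7 CPM in NOD.B10 and 1.25, 1.07 and 1.42 CPM in BL/10 (3.62 ± 0.20, adjusted p = 4.5e-05). Serpina3n, an acute phase inhibitor, was at 78.0, 78.5 and 44.4 CPM in NOD.B10 and 14.8, 19.1 and 18.5 CPM in BL/10 (1.94 ± 0.23, adjusted p = 0.0016). Serpina3b ran the other way, at 0.22 ± 0.19 CPM in NOD.B10 and 3.90 ± 1.00 CPM in BL/10 (-4.13 ± 0.47, adjusted p = 0.0013). Serpina3i, Serpina3f and Serpina3e-ps were higher in NOD.B10, and Serpina3g was not called (adjusted p = 0.19). Of the 50-base windows, 19.1% of Serpina3m and 0.054% of Serpina3a also occurred in another transcript.

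The annotated body of Olfr56 (chr11:48978889-49135387) overlaps a cluster of interferon-inducible GTPase genes. Within it 9930111J21Rik2 was at 54.3, 48.6 and 63.3 CPM in NOD.B10 and 0.16, 0.34 and 0.28 CPM in BL/10 (7.72 ± 0.22, adjusted p = 2.9e-06). Its neighbor 9930111J21Rik1 was not called, at 27.0 ± 4.12 CPM and 20.3 ± 5.51 CPM (adjusted p = 0.20). The T cell GTPase genes Tgtp1 and Tgtp2 went opposite ways, Tgtp1 lower at -0.84 ± 0.23 and Tgtp2 higher at 1.29 ± 0.24. Ifi47 was higher at 0.54 ± 0.12 (adjusted p = 0.025).

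Relatives of the duplicated pseudogenes lay nearby as well. Within 250 kb of Gm8989 (chr7:106323414-106330688), Gm4759 was at 243, 219 and 283 CPM in NOD.B10 and 47.8, 28.4 and 32.3 CPM in BL/10 (2.78 ± 0.21, adjusted p = 0.00020), and Gm8979 was higher while Gvin1 was lower. Around Gm15930 (chr7:3756905-3764030), 5 of 19 tested genes were called, all higher, among them Gm15925 at 7.71 ± 1.69 CPM against 0.50 ± 0.23 CPM (3.91 ± 0.32, adjusted p = 0.00030). Pirb, the inhibitory receptor of that family, was not called (adjusted p = 0.27). Around Ear-ps2 (chr14:44046985-44047450), all 3 called genes were lower in NOD.B10. Ear2, an eosinophil ribonuclease, was at 5.44, 6.88 and 7.08 CPM in NOD.B10 and 74.2, 116 and 89.2 CPM in BL/10 (-3.84 ± 0.20, adjusted p = 3.9e-05), so the pseudogene was read in the strain in which Ear2 was low.

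**Figure D4:**
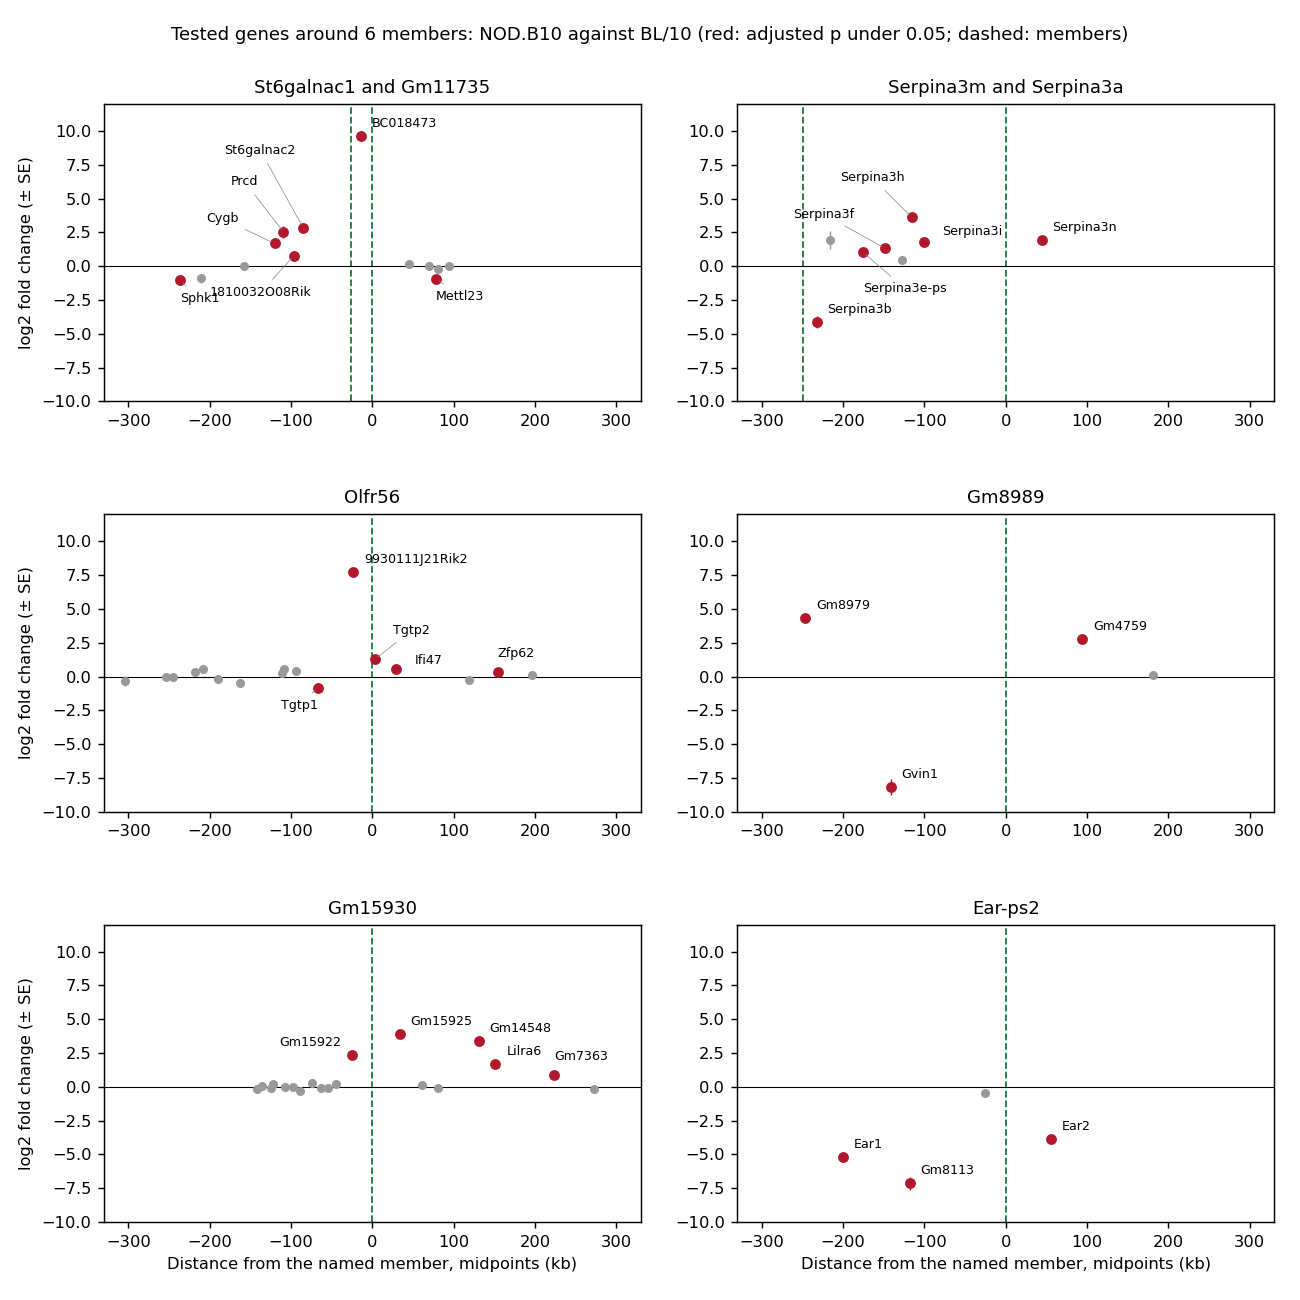
Log2 fold change (± SE, NOD.B10 against BL/10) of the tested genes outside the set within 250 kb of 6 members, against the distance between midpoints (kb). Red points have an adjusted p under 0.05 and dashed lines mark members. Around St6galnac1 and Gm15930 the large changes point up, with BC018473 at 9.62, and around Ear-ps2 they point down. The point of Gvin1, which is at 0 in NOD.B10, depends on the prior count of the fit.

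Other called neighbors with large changes lay near single members. C1s2, the partner protease of C1r, lies 43454 bases from C1rb and was at 4.49, 3.99 and 3.82 CPM in NOD.B10 and 0.22, 0.20 and 0 CPM in BL/10 (4.82 ± 0.47, adjusted p = 0.00063). H60b, a ligand of the NKG2D receptor, near Gm2539, was at 2.17 ± 0.24 CPM against 0.17 ± 0.086 CPM (adjusted p = 0.00057). Klra11-ps, near Gm15854, was higher in NOD.B10 at 3.72 ± 0.56 on the log2 scale. Gm8848, a processed pseudogene near Gm42667 in the immunoglobulin kappa region, was at 0 in NOD.B10 and had 34, 25 and 20 counts in BL/10, a level at least 26.3-fold lower. With the symbols of the left-out families also removed from the neighbors, 63 of 218 (28.9%) were called.

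The thresholds cut through a run of low counts. Just inside were Gm13104, with 10 counts in every NOD.B10 library and 0 in BL/10, Gm12312 with 10, 17 and 17 against 3, 2 and 0, Gm26583 with 10, 10 and 13 against 1, 2 and 1, Gm7353 with 10, 13 and 14 against 1, 0 and 1, and Gm8778 with 10, 15 and 11 against 0, 2 and 0. Just outside, Zfp990, a zinc finger gene, had 339, 304 and 340 counts in NOD.B10 and missed the rule by a single count in BL/10 replicate 1, at 4, 0 and 1. The other nearest genes outside were Gm42543, Gm10093, C1s2 and Apol7b, each with 4 counts in a BL/10 library, and 20 genes in all missed a threshold by 1 count. Of the gene families counted by the start of the symbol, the members held 0 of 351 tested Zfp genes, 0 of 11 Gbp genes, 0 of 61 Rps and 0 of 76 Rpl genes, with pseudogenes of those symbols. They included 2 Serpin genes (32 of that family were tested), 1 Trim gene (46 tested), 1 Hist gene (17 tested) and 1 Olfr gene (6 tested), and 50 of 77 members carried a predicted gene symbol beginning with Gm. Copies with such a symbol were not counted in the family of their parent. Among them were Gm8210, Gm13525 and Gm10288, copies of Rpl29, Rpl21 and Rpl11, and Gm44075, a copy of Trim21.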

How the data were processed

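RNA from spleens of NOD.B10 and BL/10 females (n = 3 each) was read by single-end sequencing of 50 bases. The authors deposited raw read counts per gene and library, made with featureCounts 1.5.1 on exons of Ensembl annotation 84 (GRCm38), per the file headers, without normalization. The study's methods name Tophat2 as the aligner the submitters' processing notes name HISAT2 2.0.5, and the file header points to a HISAT2 index of GRCm38 with known variants and transcripts. Reads with several placements or overlapping several genes were not counted, and strand was not used, per the counting command. Gene symbols and types came from GENCODE M21 (47310 of 47729 identifiers matched), and 70 of the 77 members have the same coordinates there.

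The members and all lists were chosen with earlier results of these data known. Counts were kept by filterByExpr, scaled by TMM and compared with edgeR 4.0.16 (quasi-likelihood test, Benjamini-Hochberg adjusted p under 0.05, BL/10 as the reference) in R 4.3.3, with DESeq2 1.42.0 as an alternative. Of the members, 75 of 77 passed the filter. Standard errors were computed from the fold change and F. Means ± SD are of TMM-scaled CPM. P-values measure the spread between these 3 libraries a strain, described as biological replicates. Ratios of pooled member counts carry exact 95% intervals, which hold counting error only and not the spread between libraries. Where BL/10 was at 0 a floor of 3 counts over the group was used. Parents were found with blastn 2.17.0. Windows of 50 bases were compared with annotated transcripts on both strands, since the planned comparison with the genome was not made. The fit was tested on simulated data.

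Named were every protein-coding member, the 5 members of each other class with the highest CPM, every parent, members within 250 kb of each other, the 5 genes nearest each side of the thresholds, and the 10 largest changes among called neighbors. Further neighbors, hosts and members were named after their values were seen. Alternatives were other thresholds, size factors, filters, windows and identities, DESeq2, leaving out libraries and a replicate block. Replicate numbers were taken from the labels, and same-numbered libraries did not deviate together.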

Additional observations from a re-analysis of the deposited data

How the results depend on the processing

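The set of 77 genes became 52 with at least 20 counts in NOD.B10, 71 with scaled counts and 103 without the libraries labelled 36 weeks, and shrank to 44 with at most 1 count and 12 with 0 counts in BL/10. Leaving out a library gave 82 to 99 genes. Genes higher in NOD.B10 (1396) numbered 680 to 1917 when a library was left out (680 without NOD.B10 replicate 1, 763 without NOD.B10 replicate 3, 812 without BL/10 replicate 2 and 915 without BL/10 replicate 3), 458 without the libraries labelled 36 weeks and 1578 with DESeq2. Called neighbors (72) numbered 46 (without NOD.B10 replicate 1) to 85 when a library was left out, 40 without the libraries labelled 36 weeks, 39 within 50 kb and 224 within 500 kb. Called parents of all pseudogenes (14) numbered 6 to 19 when a library was left out (6 without NOD.B10 replicate 1 or replicate 3) and 5 without the libraries labelled 36 weeks. Members with another nearby (4) numbered 2 within 100 kb and 14 within 1 Mb, and 4 to 10 when a library was left out (10 without BL/10 replicate 1). The cause of these shifts was not tested, beyond the fewer libraries, the stricter limits and the wider or narrower windows themselves.

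Replicate numbers are shared between strains but same-numbered libraries did not deviate together (correlations 0.03, 0.17 and -0.08), so no pairing was used. With a replicate block, 1388 genes were higher in NOD.B10, 73 neighbors and 14 parents were called, of which 13 parents were called without the block too. Size factors, filters, DESeq2 and other identities kept each count within 1.5 times. Of the parents, 14 were lower and 0 higher. With the counts of the copy added, 13 were called, but 8 were lower and 5 higher and 9 of the genes were shared, Gvin1 with its direction turned. The rule chose the added counts as high in NOD.B10, so the direction of this shift was fixed. An identity of at least 80% gave 1 higher parent, and leaving out BL/10 replicate 1 gave 2. Depth limits what can be said of the 13 members with fewer than 20 counts in every library.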

Other observations

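Gm4246, the copy of Tmem14c, had 114, 125 and 107 counts in NOD.B10 against 1, 0 and 1 in BL/10 and lies between H2-T3 and H2-M10.2 on chromosome 17. The strain name gives NOD.B10 an H2b haplotype of B10 origin, so by name H2b does not set NOD.B10 apart from BL/10. The bounds of the H2 interval that NOD.B10 carries are not given in the sources used here, and whether it reaches this gene was not tested. Eif3j2, which lies 249 bases from the Eif3j1 copy Gm3650, was at 7.32 ± 1.69 CPM in NOD.B10 and 0.87 ± 0.33 CPM in BL/10 (adjusted p = 0.00069), while Eif3j1 was lower in NOD.B10. Alox15, a lipoxygenase gene 6107 bases from Gm12312, was at 4.01, 4.48 and 3.82 CPM in NOD.B10 and 20.1, 38.8 and 34.3 CPM in BL/10. Ear1, a further ribonuclease gene 200 kb from Ear-ps2, was at 1.49 CPM in NOD.B10 and 54.3 CPM in BL/10 (log2 fold change -5.19 ± 0.37, adjusted p = 0.00015).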
